A study of Mus musculus with 12 samples.

Results

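The neuronal calcium sensors are a family of small calcium-binding proteins, and 6 of their genes were listed for the comparison: Hpca (hippocalcin), Hpcal1, Hpcal4, Ncald (neurocalcin delta), Ncs1 and Vsnl1 (visinin-like protein 1). Each was read from the probe set annotated to its symbol, taking the one with the highest mean over the arrays. The annotation held 1 probe set each for 5 of the 6 genes, out of 19505 genes with an annotated probe set, and Ncald was not analysed here. Hpca was chosen by its lower level in germ-free mice, so its differences between germ-free and colonized animals are a description without a test. The other members were named as members of the family, but the list as a whole was drawn up with earlier results of these data known.

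Adrenal medullae dissected from 12 male C57Bl6 mice were profiled on Affymetrix arrays, 1 for each animal, with 3 animals in each of 4 groups: germ-free mice given insulin (animals 10 to 12), germ-free mice given saline (animals 7 to 9), normally colonized mice given insulin (animals 4 to 6) and normally colonized mice given saline (animals 1 to 3). Germ-free mice have no gut microbes. All animals had fasted for 3 h and received 1 intraperitoneal injection, of human insulin at 2 IU/kg or of the same volume of saline, 90 min before the tissue was taken. The study asked how the response to insulin-induced low blood glucose differs between the colonization states. Ages are not given in the sources used here, and no genetic change or transgene is named for any group. Values are log2 intensities, so a difference of 1 is a doubling. The number of arrays limits their precision. In bulk tissue, fewer cells of a type and less RNA per cell cannot be told apart.

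Neuronal calcium sensors carry EF-hand loops that bind calcium, and most are myristoylated. In hippocalcin, calcium binding pushes the fatty acid out of the folded protein and carries it from the cytosol to membranes. The proteins have no enzyme activity and act by binding partners such as ion channels, receptors, kinases and membrane-trafficking proteins. Chromaffin cells, the neuron-like cells of the adrenal medulla, release adrenaline and noradrenaline when calcium enters through voltage-gated channels, and NCS-1 is known there and in neurons as a modulator of regulated secretion and of calcium channels.

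The 250 bases before the annotated transcription starts are shown for Hpca and Ncs1, the members that were lower in germ-free mice. RefSeq, on build GRCm38.p6, lists 3 starts for Hpca on the minus strand of chromosome 4 and 1 for Ncs1 on the plus strand of chromosome 2. Each window ends where RefSeq places a start, and Hpca windows 2 and 3 lie downstream of the first start, within the span of the gene. The first Hpca window is chr4:129121748-129121997, the second is chr4:129121304-129121553, window 3 is chr4:129120173-129120422 and the Ncs1 window is chr2:31245673-31245922. Capitals mark GC boxes, the letters GGGCGG on either strand, the core of a site that Sp1 family factors bind.
Hpca window 1: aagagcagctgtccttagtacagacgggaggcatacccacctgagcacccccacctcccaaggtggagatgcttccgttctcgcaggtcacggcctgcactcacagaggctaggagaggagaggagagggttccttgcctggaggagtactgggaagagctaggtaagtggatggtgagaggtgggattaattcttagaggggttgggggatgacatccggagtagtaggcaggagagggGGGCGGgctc
Hpca window 2: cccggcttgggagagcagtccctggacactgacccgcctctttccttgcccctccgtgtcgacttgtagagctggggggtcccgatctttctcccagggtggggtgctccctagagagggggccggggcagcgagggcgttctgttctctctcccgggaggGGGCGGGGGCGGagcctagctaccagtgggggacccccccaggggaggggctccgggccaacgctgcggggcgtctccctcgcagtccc
Hpca window 3: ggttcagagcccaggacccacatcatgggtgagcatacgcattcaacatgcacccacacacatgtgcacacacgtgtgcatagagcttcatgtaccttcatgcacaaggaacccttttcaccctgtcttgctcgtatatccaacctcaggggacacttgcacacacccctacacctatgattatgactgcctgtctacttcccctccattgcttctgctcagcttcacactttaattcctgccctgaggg
Ncs1: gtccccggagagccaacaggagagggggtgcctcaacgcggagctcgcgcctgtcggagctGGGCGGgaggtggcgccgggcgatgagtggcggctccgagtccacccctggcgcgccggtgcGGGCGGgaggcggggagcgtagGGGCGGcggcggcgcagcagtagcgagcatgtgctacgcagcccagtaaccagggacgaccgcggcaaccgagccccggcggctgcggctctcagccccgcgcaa

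GC boxes stood in 6 of the 8 windows of the 5 measured genes. Among all 32851 windows of the same length in the table, 32.7% held one. The 3 Hpca windows held 1, 2 and 0 of them, with a GC content of 58.8%, 71.2% and 51.2%. The Ncs1 window held 3, with a GC content of 75.6%. Across all windows the median GC content was 52.4%. Hpcal1, which was not called in any comparison, also had 3 GC boxes in its window. The letters TGACGTCA, the full cyclic AMP response element, and GCGTGGGCG, a site of EGR factors, were in none of the 8 windows, against 1.55% and 0.536% of all windows (both strands were searched). A match is a description of the letters and not a bound site.

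Hpca encodes hippocalcin, which in mice is needed for the slow after-hyperpolarization of hippocampal neurons. Hpca read 6.22, 6.29 and 6.40 in germ-free insulin mice and 6.42, 6.23 and 6.38 in germ-free saline mice. It read 8.34, 7.88 and 7.68 in colonized insulin mice and 8.20, 8.59 and 7.72 in colonized saline mice. Every germ-free array lay below every colonized array, with a gap between 6.42, the highest germ-free value, and 7.68, the lowest colonized one. The 4 group means fell into 2 levels: neighbours within a colonization state overlapped, and only the step between the states separated. Six-against-six separation of this kind in either direction held for 8.01% of all probe sets with a symbol (493 higher and 1075 lower in germ-free mice).

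Germ-free minus colonized, the Hpca difference was -1.66 ± 0.21 (SE, n = 3 arrays per group) on the log2 scale after insulin and -1.83 ± 0.21 after saline. Its mean over both treatments was -1.75 ± 0.15, so germ-free intensity was 0.298 of the colonized intensity. This was the lowest mean germ-free difference among the 19505 genes, which follows from the way Hpca was chosen and is not a result. Among the 6 germ-free arrays Hpca had an SD of 0.09, and among the 6 colonized arrays an SD of 0.37. On all 6 germ-free arrays it lay below the 95th percentile of the array's negative control rows, and on all 6 colonized arrays above it. That percentile was 8.23 to 8.41 on germ-free and 7.21 to 7.48 on colonized arrays. The cut itself thus differed between the states. On germ-free arrays Hpca, at most 6.42, lay below the colonized cuts as well. On colonized arrays it ran from 7.68 to 8.59, with values below and above the germ-free cuts. Hpca was above the median of the negative controls on all 12. The germ-free level is thus inside the range of the negative control rows, not all of which are dim, so the size of the fold is uncertain.

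**Figure D1:**
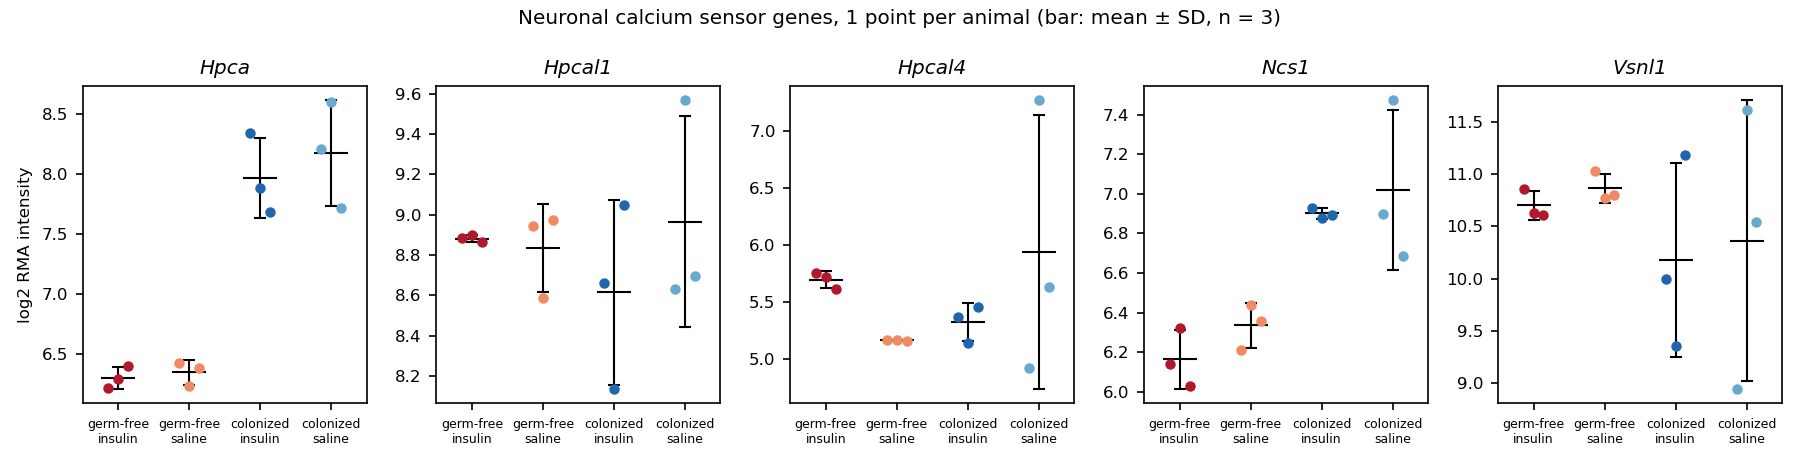
Log2 RMA intensity (vertical axis, own scale in each panel) of the 5 measured calcium sensor genes in each animal (points), with the mean and SD of each group of 3 (bars). Hpca and Ncs1 have all 6 germ-free points below all 6 colonized points, and Vsnl1 and Hpcal1 spread more widely among the colonized animals.

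Ncs1 encodes neuronal calcium sensor 1, the mammalian frequenin, which binds phosphatidylinositol 4-kinase beta and the dopamine D2 receptor. Ncs1 read 6.14, 6.32 and 6.03 in germ-free insulin mice and 6.21, 6.44 and 6.36 in germ-free saline mice. It read 6.93, 6.88 and 6.90 in colonized insulin mice and 6.90, 7.47 and 6.69 in colonized saline mice. As with Hpca, the 6 germ-free values all lay below the 6 colonized values, and the groups within a state overlapped. Ncs1 fell in germ-free mice by 0.74 ± 0.17 on the log2 scale after insulin (SE, n = 3 per group, limma adjusted p = 0.0217) and by 0.68 ± 0.17 after saline (limma adjusted p = 0.0341). Over both treatments it fell by 0.71 ± 0.12 (limma adjusted p = 0.00237). On 11 of the 12 arrays Ncs1 lay below the 95th percentile of the negative controls, so the size of this difference is uncertain, as with Hpca. That was the only germ-free difference called among the 4 members tested, in each of the 3 germ-free comparisons. Of all probe sets, 7.77% were called after insulin, 6.9% after saline and 17.6% for the mean effect, and 1 called member of 4 is too few to set against those shares.

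The Ncs1 call for the mean effect held with each of the 12 arrays left out in turn, at adjusted p = 0.000464 to 0.00837. The call after insulin held in 7 of these 12 fits: without germ-free insulin animal 10, 11 or 12 the difference was -0.73, -0.82 or -0.67 (adjusted p = 0.0617, 0.0501 and 0.0930), and without colonized insulin animal 4 or 5 it was -0.72 or -0.75 (adjusted p = 0.0847 and 0.0646). The call after saline held in 8 of 12: without germ-free saline animal 7, 8 or 9 the difference was -0.62, -0.73 or -0.69 (adjusted p = 0.121, 0.0742 and 0.0850), and without colonized saline animal 1 it was -0.74 (adjusted p = 0.0510). Calls over all 19572 probe sets also fell where the Ncs1 call was lost. After insulin they were 981, 524, 451, 478 and 700 in the order above, against 1521 with all 12 arrays. After saline they were 435, 516, 655 and 874, against 1351. The differences themselves stayed near the reported ones in these fits. Without colonized saline animal 2, the Ncs1 difference after saline was -0.46 ± 0.12 (limma adjusted p = 0.0351), the smallest of these fits. Ncs1 was above the 95th percentile of the negative controls on 0 of 6 germ-free arrays and 1 of 6 colonized arrays, and above their median on all 12.

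Hpcal1 encodes hippocalcin-like 1, also called VILIP-3, which is known in cerebellar Purkinje cells. Hpcal1 averaged 8.88 ± 0.02 in germ-free insulin, 8.83 ± 0.22 in germ-free saline, 8.61 ± 0.46 in colonized insulin and 8.96 ± 0.52 in colonized saline mice (SD, n = 3 each). All neighbouring groups overlapped. The mean germ-free difference of Hpcal1 was 0.07 ± 0.18 (limma adjusted p = 0.836), with a 95% interval of -0.32 to 0.46. After insulin it was 0.27 ± 0.26 (adjusted p = 0.604) and after saline -0.13 ± 0.26 (adjusted p = 0.803).

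Vsnl1 encodes VILIP-1, which raises the surface level of nicotinic acetylcholine receptors that hold the alpha 4 subunit. Vsnl1 read 10.86, 10.63 and 10.61 in germ-free insulin mice and 11.02, 10.78 and 10.80 in germ-free saline mice. It read 10.00, 9.36 and 11.18 in colonized insulin mice and 8.95, 11.61 and 10.54 in colonized saline mice. The germ-free values sat inside the colonized range, which spanned the lowest and the highest of the 12 arrays. The SD was 0.15 over the 6 germ-free arrays and 1.03 over the 6 colonized arrays. Vsnl1 had a mean germ-free difference of 0.51 ± 0.39 (limma adjusted p = 0.407), and its 95% interval was -0.34 to 1.36. The difference was 0.52 ± 0.55 after insulin (adjusted p = 0.647) and 0.50 ± 0.55 after saline (adjusted p = 0.629).

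Hpcal4 encodes hippocalcin-like 4, or VILIP-2, which modulates P/Q-type calcium channels. Hpcal4 read 5.75, 5.72 and 5.61 in germ-free insulin mice and 5.17, 5.16 and 5.16 in germ-free saline mice. It read 5.37, 5.14 and 5.45 in colonized insulin mice and 4.92, 7.27 and 5.63 in colonized saline mice. The value of colonized saline animal 2 stood far above the rest. The Hpcal4 difference was 0.37 ± 0.41 after insulin (limma adjusted p = 0.664) and -0.78 ± 0.41 after saline (limma adjusted p = 0.278), and after saline it was -0.11 ± 0.17 without that animal. After insulin the germ-free and colonized groups did not overlap, as was so for 31.8% of all probe sets, and after saline they did overlap, while 27.3% of all probe sets did not. Hpcal4 was below the 95th percentile of the negative controls on all 12 arrays, and below their median on the 3 germ-free saline arrays, so no level is read from it there.

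None of the 5 measured sensors passed the threshold for insulin in either colonization state. In germ-free mice, insulin minus saline was -0.05 ± 0.21 for Hpca (limma adjusted p = 0.992) and -0.17 ± 0.17 for Ncs1 (limma adjusted p = 0.910). The other members ran between -0.16 for Vsnl1 and 0.53 for Hpcal4. Hpcal4 was the 1 member of 5 whose germ-free insulin and saline groups did not overlap, against 19.7% of all probe sets, and its saline values there lay below the median of the negative controls. Of all probe sets, 0.439% were called for insulin in germ-free mice. At an unadjusted p under 0.05, limma found 0 of the 5 members.

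In colonized mice, insulin minus saline was -0.21 ± 0.21 for Hpca (limma adjusted p = 0.709), -0.35 ± 0.26 for Hpcal1 and -0.12 ± 0.17 for Ncs1. Hpcal4 (-0.62 ± 0.41) and Vsnl1 (-0.18 ± 0.55) had negative differences too, and adjusted p ran from 0.560 to 0.915. All 5 pairs of groups overlapped, while 14.1% of all probe sets did not, and 0.153% of all probe sets were called. At an unadjusted p under 0.05, limma again found 0 of 5. The negative signs rested on 1 animal for some members: without colonized saline animal 2 the difference was 0.00437 for Hpca, 0.05 for Hpcal4, 0.11 for Ncs1, 0.44 for Vsnl1 and -0.05 for Hpcal1.

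The difference of the insulin effects, germ-free minus colonized, was 0.16 ± 0.29 for Hpca (limma adjusted p = 0.890), with a 95% interval of -0.47 to 0.79. For Ncs1 it was -0.05 ± 0.24 (limma adjusted p = 0.963). For Hpcal4 it was 1.15 ± 0.58 (limma adjusted p = 0.537), and 0.49 ± 0.23 without colonized saline animal 2. Since germ-free saline Hpcal4 lay below the median of the negative controls, nothing is read from its size. No member was called, and 0 of 5 had an unadjusted p under 0.05. Of all probe sets, 0.0358% were called for this difference.

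**Figure D2:**
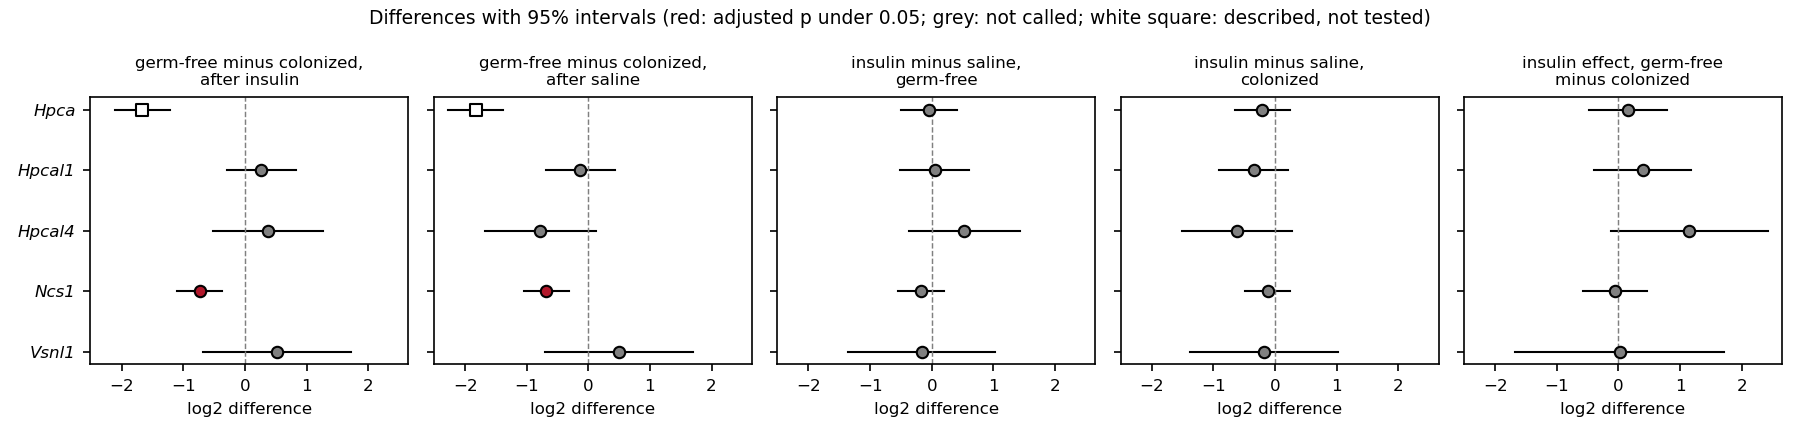
Log2 differences (horizontal axis, the same in all panels) of the 5 measured genes with 95% intervals from limma. Ncs1 is called (red) in both germ-free comparisons, Hpca is drawn as a white square because it was not tested there, and all insulin intervals include 0.

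The rest of the calcium sensor family was read from a list of 7 further genes: the photoreceptor sensors Rcvrn, Guca1a and Guca1b and the potassium channel-interacting proteins Kcnip1 to Kcnip4. For the mean germ-free effect 2 of 7 fell, 0 rose and 5 were not called, with a median of -0.03, the same as the median over all genes. Of all probe sets 11.5% were called lower and 6.14% higher for this effect, and the list counts below stand against those shares and that median. Kcnip3, known as DREAM or calsenilin, a sensor that binds potassium channels and DNA, averaged 8.45 in germ-free insulin, 9.13 in germ-free saline, 9.84 in colonized insulin and 9.51 in colonized saline mice. It fell in germ-free mice by 0.89 ± 0.18 on the log2 scale (limma adjusted p = 0.00552). Kcnip4, a subunit that binds A-type potassium channels, averaged 6.98, 7.51, 8.10 and 8.18 in the same order, and fell by 0.90 ± 0.21 (limma adjusted p = 0.0121). After insulin Kcnip3 fell by 1.39 ± 0.25 (limma adjusted p = 0.00772) and Kcnip4 fell by 1.13 ± 0.29 (limma adjusted p = 0.0376). Neither was called after saline, where the differences were -0.39 ± 0.25 and -0.67 ± 0.29. Of the chromaffin markers, 9 of 15 were called lower after insulin, with a median of -0.94, against 5.15% of all probe sets. After saline 0 of 15 were called lower, with a median of -0.20, against 4.08% of all probe sets. At an unadjusted p under 0.05 limma found 5 of the 15 after saline, against 24% of all probe sets in either direction. The part of chromaffin content in the Kcnip differences was not tested.

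Partners of the sensors were read from a list of 24 genes, of which 20 had an annotated probe set. Among these 11 fell for the mean germ-free effect and 0 rose, with a median of -0.29 (all genes -0.03, and 11.5% of all probe sets lower). By treatment, 3 of the 20 were called lower after insulin (median -0.31, 5.15% of all probe sets lower). After saline 1 was called lower (median -0.21, 4.08% of all probe sets lower). The values below are means over both treatments. Dpp6, an accessory subunit of A-type potassium channels, fell most, by 0.97 ± 0.13 (limma adjusted p = 0.000776). Drd2, the dopamine D2 receptor that NCS-1 binds, fell by 0.91 ± 0.27 (limma adjusted p = 0.0364). Dpp6 was called after insulin (-1.35 ± 0.19) and not after saline (-0.58 ± 0.19). Drd2 was called in neither (-1.07 ± 0.38 after insulin and -0.75 ± 0.38 after saline). Chrnb2, the nicotinic beta 2 subunit that pairs with alpha 4, fell by 0.85 ± 0.11 (limma adjusted p = 0.000716), and Kcnq3, a subunit of the M-type potassium channel, by 0.60 ± 0.15 (limma adjusted p = 0.0193). Chrnb2 was called after insulin (-1.23 ± 0.16) and not after saline, and Kcnq3 was called in neither.

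Calcium signalling beyond the family was read from 3 lists, also for the mean germ-free effect. Of 20 other EF-hand genes measured (22 listed), 5 fell and 0 rose, with a median of -0.16. Necab1, a neuronal EF-hand protein, fell by 0.77 ± 0.14 and Cabp1, a calmodulin-like regulator of calcium channels, by 0.64 ± 0.17. Tesc, which binds the sodium-proton exchanger, fell by 0.45 ± 0.11, while Caln1, calneuron 1, had a difference of 0.80 ± 0.35 that was not called.

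Of 20 calcium channel and pump genes measured (25 listed), 5 fell and 2 rose, with a median of -0.11. Cacna1c, the pore of the L-type channel Cav1.2, rose by 1.03 ± 0.11 in germ-free mice (limma adjusted p = 0.000241). The pores of the N-type and P/Q-type channels went the other way: Cacna1b fell by 0.77 ± 0.18 and Cacna1a by 0.51 ± 0.13. Atp2b2, a plasma membrane calcium pump, fell by 0.50 ± 0.10. Cacna1a also stood in the partner list and is counted in both.

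Of 19 genes for calcium-dependent kinases and calcineurin measured (20 listed), 5 fell and 1 rose, with a median of -0.15. Camk2b and Camk4, which encode kinases that calmodulin activates, fell by 0.91 ± 0.23 and 0.50 ± 0.13. Both were called after insulin (-1.49 ± 0.32 and -0.84 ± 0.18) and not after saline. Rcan2, a regulator of calcineurin, fell by 0.63 ± 0.18, and Camk2d, a second CaMKII subunit, rose by 0.49 ± 0.09. Rcan2 and Camk2d were called after saline (-0.95 ± 0.26 and 0.60 ± 0.12) and not after insulin. Over the 86 entries of these 5 lists limma called 12 lower and 2 higher in germ-free mice after insulin. After saline it called 5 lower and 2 higher. Of all probe sets, 5.15% were lower and 2.62% higher after insulin, and 4.08% and 2.82% after saline. Over the same 86 entries limma called 0 for insulin in germ-free mice, 0 for insulin in colonized mice and 0 for the difference of the insulin effects. At an unadjusted p under 0.05 the counts were 11, 6 and 17 of 86, against 8.31%, 11.8% and 9.97% of all probe sets.

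**Figure D3:**
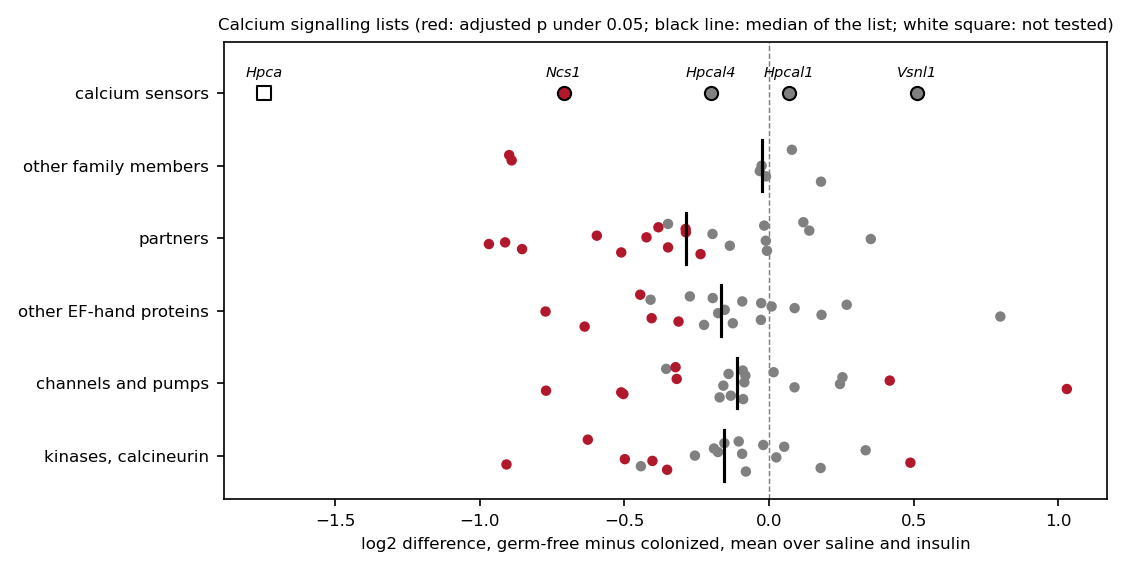
Mean germ-free minus colonized log2 difference (horizontal axis) for the calcium sensors and for each gene of the 5 calcium signalling lists, with the median of each list as a black line. Red points are called, and of those in the lists 28 lie below 0 and 3 above.

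Means of several cell type marker lists also differed between germ-free and colonized arrays. The mean of 14 neuronal markers, all measured, ran from 7.03 to 7.32 in germ-free and from 7.48 to 9.18 in colonized arrays. Of these 14 markers 7 fell and 0 rose for the mean germ-free effect (all probe sets: 11.5% lower and 6.14% higher), with a median of -0.75. Elavl3 fell most (-1.53 ± 0.20), and Snap25 was among the 7 (-1.11 ± 0.17). Since chromaffin cells are neuron-like, this list may not tell neurons and chromaffin cells apart. The mean of 10 of 12 Schwann and sustentacular markers ran from 6.64 to 6.97 in germ-free and from 6.99 to 7.98 in colonized arrays, and 5 of them fell. By treatment, 4 of these 10 were called lower after saline (median -0.83, 4.08% of all probe sets lower). After insulin 1 was called lower (median -0.19, 5.15% of all probe sets lower). Chromaffin markers, 15 of 17 measured, ran from 9.90 to 10.78 in germ-free and from 10.83 to 11.34 in colonized arrays, and 9 of the 15 fell. Adrenal cortex markers, 10 of 12 measured, ran from 12.68 to 12.74 in germ-free and from 12.24 to 12.65 in colonized arrays, and 2 of them rose. Adipocyte markers, 11 of 12 measured, ran from 9.50 to 11.00 in germ-free and from 7.05 to 10.73 in colonized arrays.

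Markers of other organs were measured as well. Intestinal markers, 8 of 8 measured, ran from 5.14 to 5.42 in germ-free insulin, from 7.64 to 9.51 in germ-free saline and from 5.05 to 5.27 in colonized arrays. Pituitary markers, 7 of 8 measured, ran from 6.77 to 7.71 in germ-free insulin, from 5.33 to 5.75 in germ-free saline and from 5.13 to 5.43 in colonized arrays. Hepatocyte markers, 7 of 8 measured, ran from 7.14 to 10.54 in germ-free and from 6.19 to 11.34 in colonized arrays. Each germ-free group thus had 1 list, intestinal after saline and pituitary after insulin, whose range lay above that of the colonized arrays. The part of these tissues in the germ-free differences of the members was not tested. Endothelial markers, 8 of 8 measured, ran from 9.29 to 9.47 in germ-free and from 9.47 to 9.67 in colonized arrays, and macrophage and fibroblast markers, 7 of 8 each, overlapped between the states. The log2 scale has no zero, so no marker is listed at 0. The part of cell makeup in the sensor differences was not tested by an independent measure of cells.

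Colonized saline animal 2 stood apart within its group. It had the highest neuronal mean (9.18, against 7.81 and 7.48 in animals 1 and 3) and the highest Schwann and sustentacular mean (7.98, against 7.60 and 7.13). Its hepatocyte mean was 11.34, against 6.19 and 8.15, its adipocyte mean 10.73, against 7.36 and 9.86, and its fibroblast mean 9.84, against 7.98 and 8.49. Its cortex mean of 12.24 was the lowest of the 12 arrays. It also had the highest value of its group for each of the 5 sensors. Across genes, its array correlated with those of animals 1 and 3 at 0.954 and 0.968, while animals 1 and 3 correlated at 0.988. Without it the mean germ-free difference was -1.64 ± 0.13 for Hpca and -0.60 ± 0.08 for Ncs1 (limma adjusted p = 0.000464).

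The array background also differed between the states. The median of the 5222 negative control rows was 5.30 to 5.54 on germ-free arrays and 4.70 to 4.83 on colonized arrays, while the median of the gene rows was 6.78 to 6.84 on germ-free arrays and 6.85 to 6.94 on colonized arrays. On every array the 95th percentile of the negative control rows lay above the median of the gene rows, so not all of these rows are dim. Since every germ-free array has the higher background, background and colonization state cannot be told apart.

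**Figure D4:**
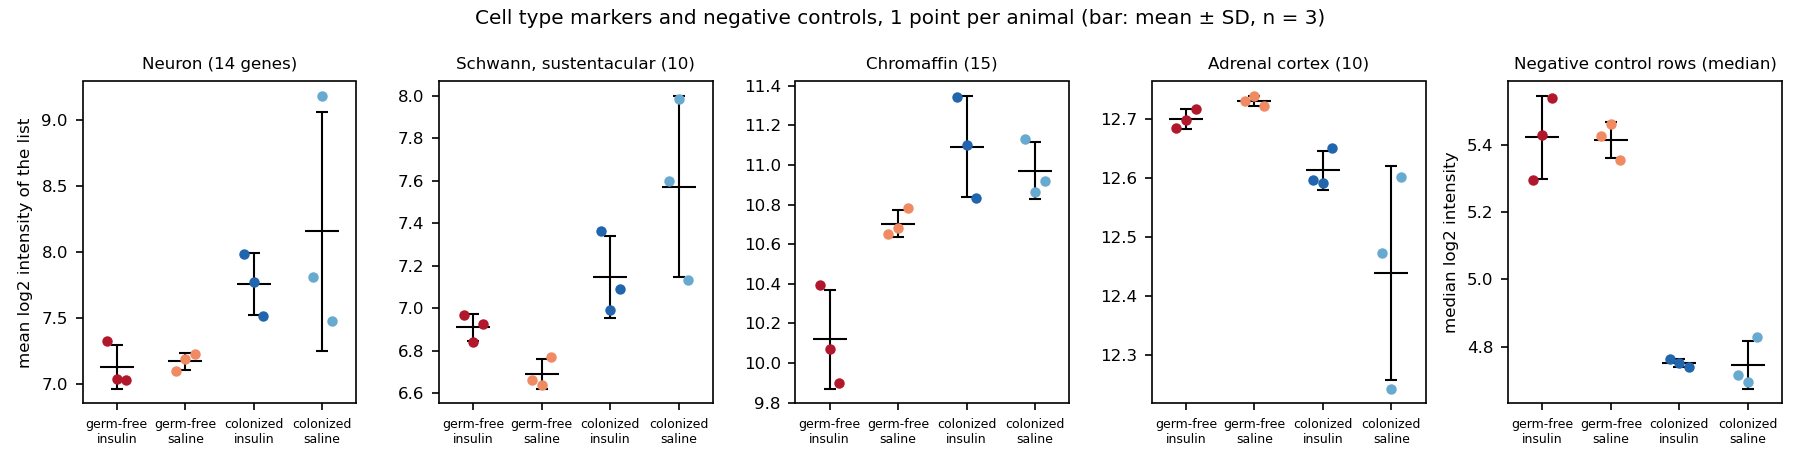
Mean log2 intensity of 4 marker lists and the median of the negative control rows (vertical axes, own scale in each panel) for each animal, with the mean and SD of each group of 3. Neuronal, Schwann and chromaffin means are lower on all germ-free arrays, and adrenal cortex means and negative controls are higher.

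Marker means were also entered in the fit as a covariate. The neuronal, Schwann and sustentacular, chromaffin and adrenal cortex means did not overlap between the states, while adipocyte means did. Fits with the separated lists therefore cannot tell markers and colonization state apart. For Hpca, whose difference chose it, the values are a description: -1.37 with neuronal, -1.52 with chromaffin, -1.69 with adipocyte, -1.28 with adrenal cortex and -1.15 with Schwann and sustentacular markers. The Ncs1 difference was smaller under some of the same fits. With adrenal cortex markers it was -0.30 (limma adjusted p = 0.125), with Schwann and sustentacular markers -0.31 (adjusted p = 0.293) and with neuronal markers -0.38 (adjusted p = 0.0411). With chromaffin markers Ncs1 was -0.75 (adjusted p = 0.315, where 1 of 19572 probe sets was called), and with adipocyte markers -0.82 (adjusted p = 0.0151). With the negative control median as a covariate, which also separates the states completely, Hpca was -1.22 ± 0.82 and Ncs1 0.09 ± 0.64 (adjusted p = 0.997, where 0 of 19572 probe sets were called).

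**Figure D5:**
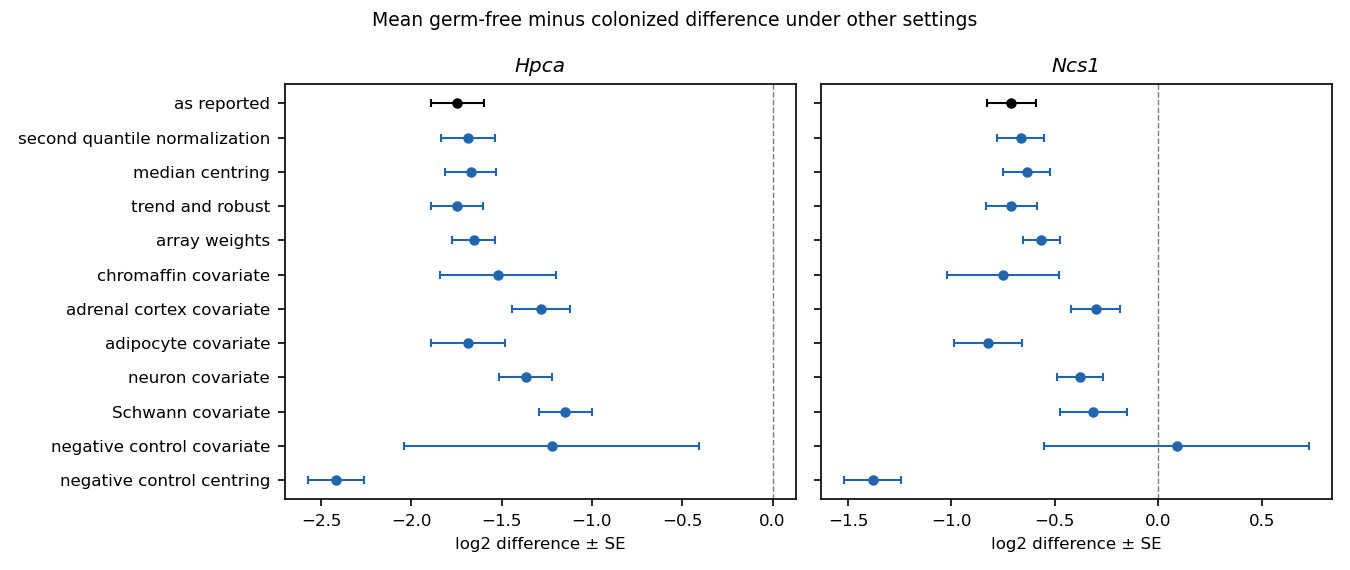
Mean germ-free minus colonized log2 difference ± SE (horizontal axis, own scale in each panel) of Hpca and Ncs1 as reported (black) and under other settings (blue). Hpca runs from -2.42 to -1.15, and Ncs1 from -1.38 to 0.09.

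The genes whose pattern over the 12 arrays was most like that of Hpca, among the 9753 genes at or above the median level, were Bex4, Hdgfl2, Clvs1, Marcks and Galnt2. Their Pearson correlation with Hpca was 0.971, 0.967, 0.967, 0.966 and 0.963 over 12 arrays. The arrays fall into 2 sets by colonization, which these values reflect. After subtraction of the group means the correlations were 0.771 for Bex4, 0.639 for Hdgfl2, 0.739 for Clvs1, 0.739 for Marcks and 0.460 for Galnt2. Marcks, a calmodulin-binding substrate of protein kinase C at the membrane, averaged 9.78 in germ-free insulin, 9.77 in germ-free saline, 10.35 in colonized insulin and 10.61 in colonized saline mice. Bex4 averaged 6.68, 6.71, 7.14 and 7.33 in the same order. Both had their 2 germ-free means below their 2 colonized means, as Hpca did. Since they were picked for their likeness to Hpca over the same 12 arrays, this order follows from the choice and is not a result. The correlations after subtraction of the group means come from the same arrays and the same picked genes. They are a description without a test.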

How the data were processed

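The deposited values are log2 intensities made by the authors with RMA, per the submitters' processing notes, which also name limma and give no versions. RMA corrects background, equalises the distributions of arrays and summarises each probe set. Whether all 12 arrays were normalised together was not stated in the sources used here. The table has 28846 rows, 19572 with 1 gene symbol (19505 genes). Nothing was transformed further.

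One mean per group was fitted to all 12 arrays with limma 3.58.1 in R 4.3.3 (lmFit, eBayes without trend or robust options, 8 residual degrees of freedom), and 6 contrasts were taken. P-values were adjusted by Benjamini-Hochberg over 19572 probe sets and called under 0.05, with no filter on dim values. The scripts were tested on simulated data.

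Groups came from the sample labels, and each animal is 1 replicate. The members and lists were chosen with earlier results of these data known. Named genes were all members, up to 4 genes per list with the largest change in the contrast described, the 5 genes most like Hpca, and markers where their list is described. Comparisons with the negative controls, and covariates for neuronal markers, Schwann markers and the negative controls and centring on the negative controls, were added after the data were seen. Promoter sequence is from RefSeq on GRCm38.p6, and no coordinates of the probe sets are given.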

Additional observations from a re-analysis of the deposited data

Results flagged for a closer look

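The negative control rows, which are named as such and have no gene symbol in the annotation, read higher on germ-free arrays. The 6 array medians averaged 5.42 in germ-free mice and 4.75 in colonized mice, a difference of 0.670 on the log2 scale. This came from rows that the gene comparisons do not use. All 6 germ-free medians lay above all 6 colonized medians, and all 12 arrays come from 1 deposited table. Hpca and Ncs1 were lower on the same germ-free arrays. The part of the background in those differences was not tested, since it cannot be told apart from colonization.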

How the results depend on the processing

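Over 16 other settings and 12 arrays left out in turn, 818 member differences were recomputed: 688 kept their direction and call, 91 changed sign, 19 lost the call, 6 gained one, and 14 values of Hpca moved by more than the spread between replicates. Of the 91 changes of sign, 3 were of a called difference, all of Ncs1 with the negative control median as a covariate. The cause of the changes was not tested. Values inside the range of the negative control rows limit what is read from Hpcal4, Ncs1 and the germ-free Hpca level.

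The count of members called was 0 for both insulin effects and for their difference, and 1 (Ncs1) for each of the 3 germ-free comparisons. Leaving out 1 array gave 0 to 0 for the insulin comparisons, 0 to 1 for germ-free after insulin and after saline, and 1 to 1 for the mean effect. Of all 19572 probe sets, these fits called 451 to 2854 for germ-free after insulin and 435 to 1938 after saline. For the mean effect they called 2433 to 4904. The germ-free count was 0 in all 3 comparisons without dim probe sets (which leaves out Ncs1 and Hpcal4 themselves), with chromaffin markers and with the negative control median. The chromaffin fit called 0, 669 and 1 of all 19572 probe sets after insulin, after saline and for the mean and the negative control fit 0 in each, against 1521, 1351 and 3454 with no covariate. It was 0 after saline and for the mean with adrenal cortex or Schwann markers, where 161 and 1 of all probe sets were called after saline and 2167 and 229 for the mean. Adipocyte markers gave 0 after insulin and 2 after saline, neuronal markers 2 after insulin and 0 after saline; of all probe sets, adipocyte markers called 29 and 1833 and neuronal markers 2567 and 697. Fitting the compared groups alone gave 0 for germ-free after saline and 1 for insulin in germ-free mice. The member called was Hpcal4 (limma adjusted p = 0.0271), with saline values below the negative control median. Over all 19572 probe sets, these fits called 158 for germ-free after saline, against 1351 in the reported fit. For insulin in germ-free mice they called 320, against 86. Calls over all probe sets thus moved the same way as the member counts. Centring on the negative controls gave 3 after saline and 3 for the mean effect, while it called 17204 and 18549 of all 19572 probe sets. That setting moved the median over all genes to -0.70 for the mean effect, and Hpcal1, at -0.60, lay above that median.

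With array weights, the differences that changed sign were 0.14 (Hpca) and 0.11 (Ncs1) for insulin in colonized mice and -0.18 (Hpca) for the difference of insulin effects. They were also 0.064 (Hpcal1) for germ-free after saline. With chromaffin markers as a covariate, the differences that changed sign were 0.17 (Hpca), -0.32 (Hpcal1) and -0.0030 (Hpcal4) for insulin in germ-free mice and 0.062 (Vsnl1) for insulin in colonized mice. They were also -0.048 (Hpcal1) and -1.43 (Vsnl1) for the difference of insulin effects and -0.35 (Hpcal1), -0.52 (Hpcal4) and -1.48 (Vsnl1) for germ-free after insulin. They were also -0.051 (Vsnl1) for germ-free after saline and -0.32 (Hpcal1) and -0.77 (Vsnl1) for the mean germ-free effect. With adrenal cortex markers, the differences that changed sign were -0.019 (Hpcal1) for insulin in germ-free mice and 0.22 (Hpca), 0.031 (Hpcal1), 0.24 (Hpcal4), 0.26 (Ncs1) and 0.34 (Vsnl1) for insulin in colonized mice. They were also -0.34 (Hpca), -0.050 (Hpcal1) and -0.60 (Vsnl1) for the difference of insulin effects and 0.51 (Hpcal1) and 0.66 (Hpcal4) for germ-free after saline. They were also 0.73 (Hpcal4) for the mean germ-free effect. With adipocyte markers, the differences that changed sign were -0.17 (Hpcal1) for insulin in germ-free mice and 0.00077 (Hpcal4) and 0.84 (Vsnl1) for insulin in colonized mice. They were also -0.15 (Hpcal1) and -1.69 (Vsnl1) for the difference of insulin effects and -0.40 (Hpcal1), -0.88 (Hpcal4) and -1.56 (Vsnl1) for germ-free after insulin. They were also -0.32 (Hpcal1) and -0.71 (Vsnl1) for the mean germ-free effect. With neuronal markers, the differences that changed sign were 0.045 (Ncs1) and 0.12 (Vsnl1) for insulin in colonized mice and -0.0063 (Hpca) and -0.25 (Vsnl1) for the difference of insulin effects. They were also 0.31 (Hpcal1) and 0.26 (Hpcal4) for germ-free after saline and 0.65 (Hpcal4) for the mean germ-free effect. With Schwann markers, the differences that changed sign were -0.16 (Hpcal1) for insulin in germ-free mice and 0.25 (Hpca), 0.056 (Hpcal1), 0.015 (Hpcal4), 0.18 (Ncs1) and 0.22 (Vsnl1) for insulin in colonized mice. They were also -0.53 (Hpca), -0.22 (Hpcal1) and -0.59 (Vsnl1) for the difference of insulin effects and 0.71 (Hpcal1) and 0.54 (Hpcal4) for germ-free after saline. They were also 0.64 (Hpcal4) for the mean germ-free effect. With the negative control median, the differences that changed sign were 0.064 (Ncs1) for germ-free after insulin and 0.84 (Hpcal1), 0.34 (Hpcal4) and 0.11 (Ncs1) for germ-free after saline. They were also 0.92 (Hpcal4) and 0.089 (Ncs1) for the mean germ-free effect. With centring on the negative controls, the differences that changed sign were -0.40 (Hpcal1), -0.30 (Hpcal4) and -0.15 (Vsnl1) for germ-free after insulin and -0.17 (Vsnl1) for germ-free after saline. They were also -0.60 (Hpcal1) and -0.16 (Vsnl1) for the mean germ-free effect.

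For insulin in germ-free mice, leaving out 1 array gave -0.078 to 0.12 (Hpcal1). For insulin in colonized mice, leaving out 1 array gave -0.43 to 0.0044 (Hpca), -1.13 to 0.046 (Hpcal4), -0.28 to 0.11 (Ncs1) and -0.89 to 0.44 (Vsnl1). For the difference of insulin effects, leaving out 1 array gave -0.050 to 0.39 (Hpca), -0.28 to 0.11 (Ncs1) and -0.60 to 0.73 (Vsnl1). For germ-free after saline, leaving out 1 array gave -0.30 to 0.17 (Hpcal1) and -0.21 to 1.12 (Vsnl1). For the mean germ-free effect, leaving out 1 array gave -0.051 to 0.22 (Hpcal1) and -0.46 to 0.13 (Hpcal4). No paired analysis was possible because animals are numbered 1 to 12 and no number is shared between groups. The alternative with another probe set per gene was not run, since each measured member has 1. Fits to the 2 compared groups alone gave no value for the mean effect or the difference of insulin effects, which need all 4 groups.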
